A study of Mus musculus with 5 samples.

Results

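Rgs22 was the host gene of 25 of the 11957 circular RNAs (circRNAs) listed in mouse testis after triptolide or saline. All rows of the deposited circRNA table with the gene symbol Rgs22 were taken, and each circle is named by its start and end on chromosome 15, in kb above the lowest start of any Rgs22 circle. The gene was chosen by the SRPBM values, a measure of circle level, of 1 of its circles, 0 to 15.699 kb, which was listed in all 3 triptolide libraries and at 0 in both control libraries. Because that contrast chose the gene, the levels of its circles in triptolide against control are given as a description. The only counts of calls for them come from the fit over all circRNAs, and nothing is read from those. The mice were males aged 10 weeks, labelled C57/BL6J. Triptolide, a diterpenoid of the vine Tripterygium wilfordii, was given to the triptolide group by gavage, at a daily dose of 50 µg per kg. Control mice received saline, and testes of both groups were taken at 35 days. The labels give 6 mice per group and do not say whether a library is 1 mouse or a pool, so the spread between libraries may be partly technical.

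A circRNA forms when the end of an exon is spliced backwards to the start of the same or an earlier exon, which closes the RNA into a ring that is detected by reads across the back-splice junction. One gene can give many circles, because the same splice site can be joined to several partners. Rgs22 encodes a member of the regulator of G protein signalling (RGS) family, proteins with a domain that binds G protein alpha subunits. In most RGS proteins this domain speeds the return of the alpha subunit to its inactive state, and RGS22 is known mainly from the testis. SRPBM counts the reads across a back-splice junction relative to all mapped reads of a library, and 1 read was worth 8.29 to 9.57 SRPBM. The 5 libraries held 32804 to 44318 circRNA junction reads each, and the smallest value listed in any of them was 2 reads. No source used here says what a 0 means, so a circle is described only as listed at 0.

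Control 1 stood apart from the other libraries in its zeros. Of 346 circRNAs with at least 100 SRPBM in each of the other 4 libraries, control 1 listed 66 at 0, which is 19.1% (exact 95% interval 15.1% to 23.6%). The same share was 0.364% in control 2 (1 of 275) and 0.357% to 0.376% in the triptolide libraries, with 1 circRNA in each. The circRNA of Gm7133 at chromosome 1, 97182978 to 97189368, has the highest level of the 66 by the lowest of the other 4 libraries, with 2516, 2737 and 2011 SRPBM in triptolide A, B and C, 0 in control 1 and 1823 in control 2. A 0 in control 1 was therefore common even among abundant circRNAs, and ratios below are also given without that library. The part of these zeros in the Rgs22 values was not tested.

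**Figure D1:**
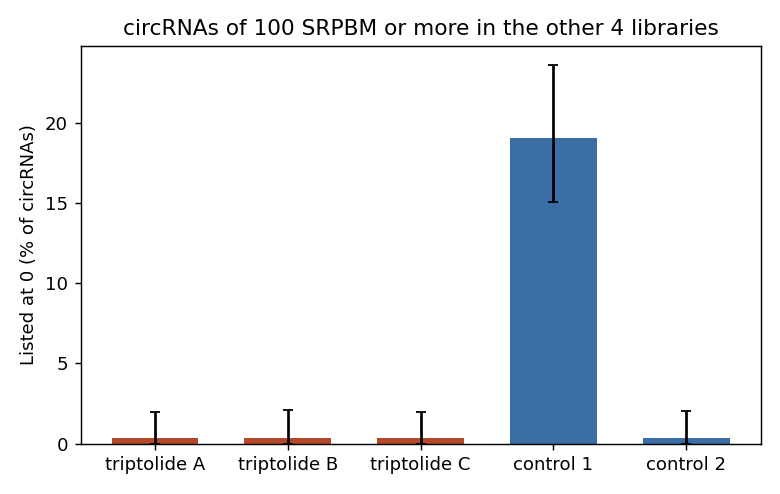
Share of circRNAs listed at 0 in 1 library (y axis, percent) among those with at least 100 SRPBM in each of the other 4 libraries; bars are libraries and error bars are exact 95% intervals. Control 1 is at 19.1%, and the other 4 libraries are between 0.357% and 0.376%.

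The 25 Rgs22 circles joined 12 starts to 11 ends. The highest end was at position 36122332 of chromosome 15 and the lowest start, the 0 kb of the scale, 112044 bases below it. The circles spanned 2924 to 91568 bases of genome each. All 25 were inside the span that RefSeq gives Rgs22 on GRCm38.p6, between its neighbours Cox6c and Fbxo43. Antisense transcripts at the gene are listed on the plus strand, so Rgs22 is read from high to low coordinates. The start of a circle, its lower coordinate, is then the splice donor, and its end is the acceptor. At 4 places a start lay 114 to 179 bases below an end used by another circle, for example the start at 15.520 kb below the end at 15.699 kb. No genome sequence or exon list was used here, and whether each of these stretches is 1 exon was not examined.

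Of the 25 circles, 6 were listed above 0 in all 5 libraries, 1 in 4, 1 in 3, 3 in 2 and 14 in 1. The 14 single-library circles had 16 to 58 SRPBM, which is 2 to 7 reads, and 9 of them had 2 reads. They were 7 in triptolide libraries, with 5 in A, 1 in B and 1 in C, and 7 in control libraries, with 1 in control 1 and 6 in control 2. Altogether 14, 11 and 10 Rgs22 circles were listed in triptolide A, B and C, against 8 and 14 in controls 1 and 2. By group, 10 circles were listed only in triptolide libraries and 7 only in control libraries. Apart from the 0 to 15.699 kb circle, the triptolide-only circles reached at most 52 SRPBM in any library, and the 2 of them found in more than 1 library were 35.726 to 44.590 kb (0, 17 and 43 SRPBM in triptolide A, B and C) and 70.529 to 73.453 kb (19, 17 and 0). The control-only circles reached at most 58 SRPBM. The 6 circles found in every library carried most of the signal, with 79.2%, 78.3% and 75.2% of the Rgs22 sum in triptolide A, B and C and 86.0% and 80.8% in controls 1 and 2.

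**Figure D2:**
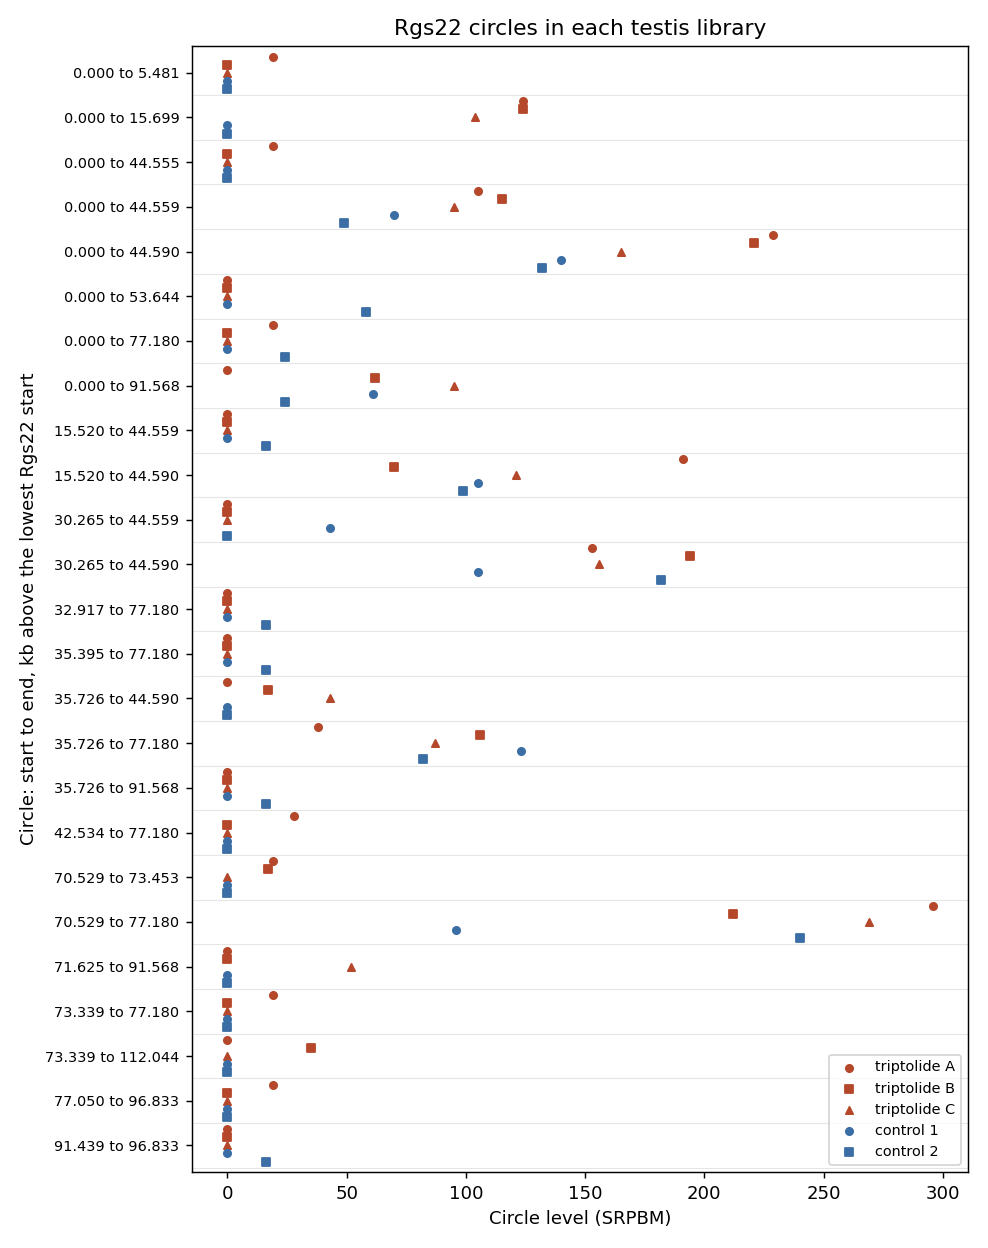
Level of each of the 25 Rgs22 circles (x axis, SRPBM) in the 3 triptolide libraries (red) and the 2 control libraries (blue). Each row is a circle, named by its start and end in kb above the lowest Rgs22 start, and each point is a library. In the row 0.000 to 15.699 the 3 triptolide points lie at 104 to 124 SRPBM and both control points at 0.

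The circle from 0 to 15.699 kb, 15699 bases of genome, had 124, 124 and 104 SRPBM in triptolide A, B and C and was listed at 0 in both controls. These values stand for 13, 14 and 12 junction reads in the triptolide libraries. The exact Poisson 95% intervals of these reads run from 6.92 to 22.2, from 7.65 to 23.5 and from 6.20 to 21.0, and like all intervals here they cover counting error only. The triptolide libraries were thus close to each other, and no control library listed the circle. It made up 9.70%, 10.5% and 8.76% of the Rgs22 junction reads in triptolide A, B and C (exact 95% intervals 5.27% to 16.02%, 5.88% to 17.03% and 4.61% to 14.8%). If a listed 0 stands for 0 reads, the upper limit is 3.69 reads in each control. As a share of the Rgs22 junction reads, it is 4.25% in control 1 and 3.08% in control 2. In bulk testis, a different number of cells that make a circle and a different amount of it per cell cannot be told apart.

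Among the 379 circRNAs with at least 100 SRPBM in every triptolide library, this was the only one listed at 0 in both controls. This pattern chose the gene, and the cut of 100 lies just below the circle's 104 SRPBM in triptolide C. Nothing is therefore read from its being the only one. Of those 379, control 1 listed 70 at 0 and control 2 listed 2. The other circle at 0 in control 2 was that of Cadm1, a cell adhesion gene (chromosome 9, 47787971 to 47818817), with 937, 1169 and 1088 SRPBM in triptolide A, B and C, 747 in control 1 and 0 in control 2. No circRNA had the reverse pattern, 0 in all triptolide libraries and at least 100 SRPBM in both controls. The highest others at 0 in both controls, ordered by their lowest triptolide library, were circles of Ahcyl2 and Ube3a. Ahcyl2 had 57, 115 and 60 SRPBM in triptolide A, B and C. Ube3a, which encodes a ubiquitin ligase, had 57, 62 and 95.

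By number of circles, though not by summed level, the start at 0 kb was the most used Rgs22 splice site, with 8 of the 25 circles. Their summed level was 515, 522 and 459 SRPBM in triptolide A, B and C and 271 and 287 in controls 1 and 2. Every triptolide library was above both controls, with a ratio of the means of 1.79 (1.74 without control 1). Leaving out the 0 to 15.699 kb circle, the other 7 summed to 391, 398 and 355 SRPBM in triptolide A, B and C and 271 and 287 in controls 1 and 2. The groups still did not overlap, and the ratio was 1.37 (1.33 without control 1).

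The most abundant partner of that start was the end at 44.590 kb. This circle had 229, 221 and 165 SRPBM in triptolide A, B and C and 140 and 132 in controls 1 and 2. Its mean was 205 ± 34.9 SRPBM in triptolide (SD, n = 3) and 136 ± 5.7 in control (SD, n = 2), without overlap, and the ratio was 1.51 (1.55 without control 1). The circle to the end at 44.559 kb, 31 bases lower, had 105, 115 and 95 SRPBM in triptolide A, B and C and 70 and 49 in controls 1 and 2. Its groups did not overlap either, and the ratio was 1.76 (2.14 without control 1). Another end in the same place, at 44.555 kb, was listed only in triptolide A, at 19 SRPBM.

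The 0 kb start was also joined to 4 more ends. The circle to 91.568 kb, the longest of all at 91568 bases, had 0, 62 and 95 SRPBM in triptolide A, B and C and 61 and 24 in controls 1 and 2, so that the groups overlapped. The circle to 53.644 kb was listed only in control 2, at 58 SRPBM from 7 reads, the highest level of any single-library circle. The circle to 77.180 kb had 19 SRPBM in triptolide A and 24 in control 2. The circle to 5.481 kb had 19 SRPBM in triptolide A only. These 3 circles rest on 2 to 7 reads in any library that listed them. The end at 15.699 kb itself was used by no other Rgs22 circle.

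**Figure D3:**
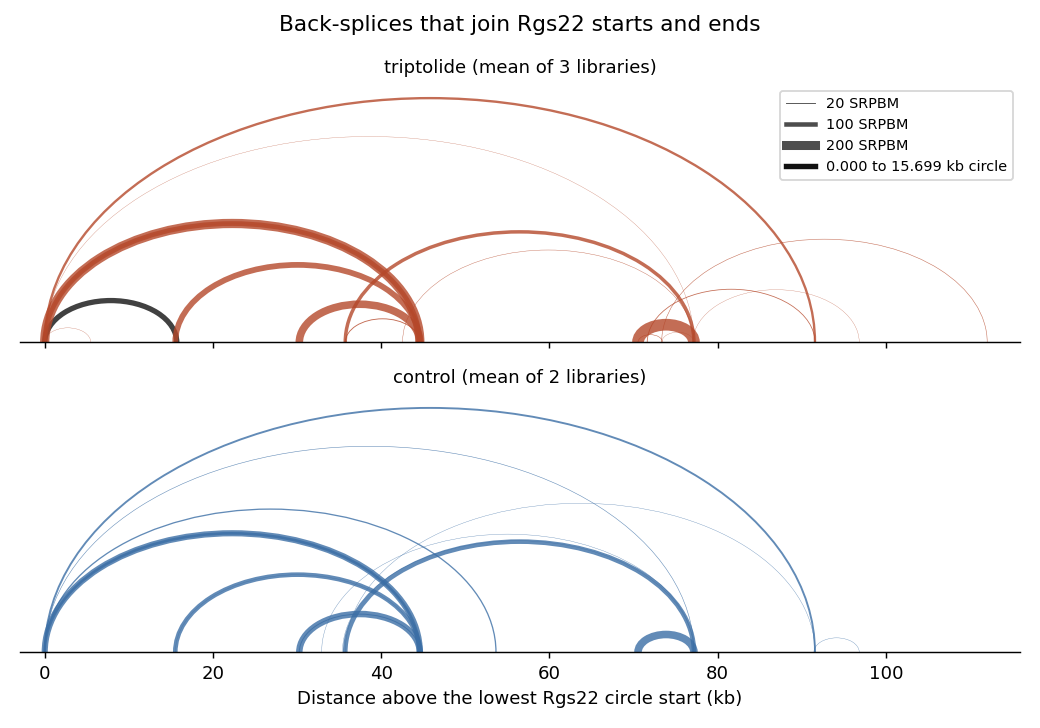
Back-splices that join Rgs22 starts and ends, drawn as arcs over the distance above the lowest circle start (x axis, kb), with line width in proportion to the mean SRPBM, and height set by the span of the circle alone; the means are over 3 triptolide libraries (top) and 2 control libraries (bottom). The arc from 0.000 to 15.699 kb (black) is present in the triptolide panel only, while the arcs to the ends near 44.6 kb are in both.

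Outside that start, 4 circles were above 0 in every library. The circle from 70.529 to 77.180 kb was the most abundant Rgs22 circle, with a mean share of 20.3% of the Rgs22 sum. It had 296, 212 and 269 SRPBM in triptolide A, B and C and 96 and 240 in controls 1 and 2. Control 1 was far below the rest while control 2 lay within the triptolide range, so that the ratio of 1.54 was 1.08 without control 1. The circle from 30.265 to 44.590 kb had 153, 194 and 156 SRPBM in triptolide A, B and C and 105 and 182 in controls 1 and 2. Its means were 168 ± 22.9 SRPBM in triptolide (SD, n = 3) and 144 ± 54.4 in control (SD, n = 2), with overlap.

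In the other 2 of these 4 circles the spread lay within the triptolide group as well. The circle from 15.520 to 44.590 kb had 191, 70 and 121 SRPBM in triptolide A, B and C and 105 and 99 in controls 1 and 2. The 2 controls thus lay inside the triptolide range. The circle from 35.726 to 77.180 kb had 38, 106 and 87 SRPBM in triptolide A, B and C and 123 and 82 in controls 1 and 2. It was the only one of the 6 circles in all libraries with a lower mean in triptolide, 77.0 ± 35.1 SRPBM (SD, n = 3) against 103 ± 29.0 in control (SD, n = 2), and its groups overlapped.

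As shares of the Rgs22 sum, which do not depend on the scaling of a library, most circles overlapped between the groups. The 70.529 to 77.180 kb circle took 23.2%, 18.1% and 22.7% in triptolide A, B and C and 12.9% and 24.7% in controls 1 and 2. The 0 to 44.590 kb circle took 17.9%, 18.8% and 13.9% in triptolide A, B and C and 18.8% and 13.6% in controls 1 and 2. Both leading circles thus had a control library inside or close to the triptolide range, and control 1 had the lowest share of the first. The 30.265 to 44.590 kb circle took 13.9% ± 2.4 in triptolide (SD, n = 3) and 16.4% ± 3.3 in control (SD, n = 2). The 15.520 to 44.590 kb circle took 10.4% ± 4.5 in triptolide and 12.2% ± 2.8 in control, and the 0 to 44.559 kb circle 8.67% ± 0.98 in triptolide and 7.24% ± 3.1 in control. The 35.726 to 77.180 kb circle, at 6.45% ± 3.1 in triptolide and 12.5% ± 5.7 in control, differed by more in its mean, and its 8.45% in control 2 lay inside the triptolide range of 2.97% to 9.04%.

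**Figure D4:**
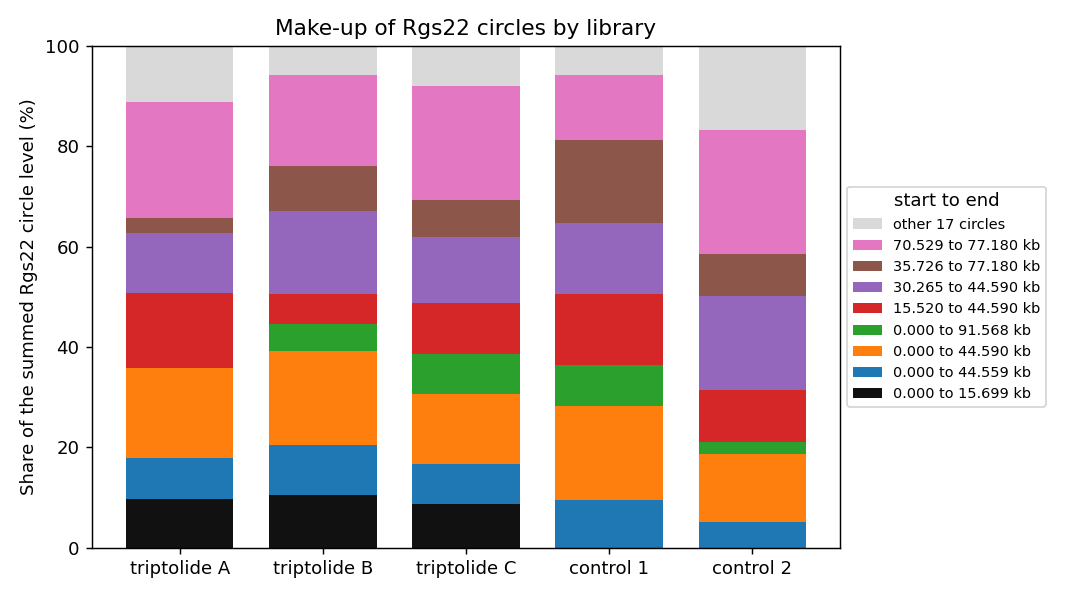
Share of each circle in the summed Rgs22 level (y axis, percent) by library (x axis), with circles named by start and end in kb above the lowest start and the other 17 circles in grey. The 0.000 to 15.699 kb circle (black) is 8.76% to 10.6% of the sum in the 3 triptolide libraries and at 0 in both controls.

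Summed over all 25 circles, Rgs22 had 1278, 1173 and 1187 SRPBM in triptolide A, B and C and 743 and 970 in controls 1 and 2. The ratio of the means was 1.42 (1.25 without control 1, 1.63 without control 2). Without the 0 to 15.699 kb circle the sums were 1154, 1049 and 1083 SRPBM in triptolide A, B and C and 743 and 970 in controls 1 and 2, with a ratio of 1.28 (1.13 without control 1). Every triptolide library was above both controls in each of these sums, and control 1 was the lowest library throughout. The 6 circles in all libraries gave 1012, 918 and 893 SRPBM in triptolide A, B and C and 639 and 784 in controls 1 and 2, a ratio of 1.32 (1.20 without control 1). As a share of all circRNA signal, Rgs22 held 0.410%, 0.301% and 0.389% in triptolide A, B and C and 0.213% and 0.270% in controls 1 and 2.

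In a fit over all circRNAs above 0 in at least 2 libraries (limma on log2(SRPBM + 16), Benjamini-Hochberg adjustment), 0 of 5457 (0%) passed an adjusted p of 0.05, and 0 of the 11 Rgs22 circles that entered it. In that fit 360 of the 5457 had an unadjusted p under 0.05, and edgeR's quasi-likelihood test on the decoded reads called 0 of 928, with 30 unadjusted. The other 14 Rgs22 circles were in 1 library and did not enter. Among the 11, 3 had every triptolide library above both controls and 0 the reverse, where 6.78% and 10.5% of all circRNAs in the fit did. Those 3 are described above, and all begin at 0 kb. Among circRNAs listed in all 5 libraries, 2 of the 6 of Rgs22 and 8.33% of all 1404 had every triptolide library above both controls. Since this contrast chose the gene, nothing is read from these counts.

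Whether circles that share a splice end go the same way was read from pairs of circles. By group means, 16 of the 25 circles were higher in triptolide and 9 lower. For the 14 circles listed in 1 library, the direction is set by the group of that library. This split into higher and lower fixes the same-way share over all pairs together. Each share below is therefore read only beside that of the other pairs. Of 69 pairs with a common start or end, 36 (52.2%) went the same way, and of 231 pairs with neither, 120 (51.9%) did. The median distance between the log2 profiles of a pair over the 5 libraries (root mean square, each profile centred on its mean) was 0.77 for pairs that share either and 0.75 for pairs that share neither. Pairs with a common start and pairs with a common upper end lay on opposite sides of that value. The 35 pairs with a common start had a median distance of 1.01, with 19 (54.3%) going the same way, and the 34 with a common upper end had 0.67, with 17 (50.0%). The pairs with a common start include those of the 0 to 15.699 kb circle, which was chosen by its contrast. Without it, 28 such pairs had a median distance of 0.81, with 14 (50.0%) going the same way. The pairs with a common upper end were unchanged, and pairs with neither had 0.67. Among the 11 circles above 0 in at least 2 libraries, 9 were higher in triptolide and 2 lower. Their same-way shares were 66.7% of the 21 pairs with a common start or end and 67.6% of the 34 pairs with neither. Split by kind, they were 58.3% of 12 pairs with a common start and 77.8% of 9 with a common upper end. Without the 0 to 15.699 kb circle, the share was 50.0% of 8 pairs with a common start and unchanged for a common upper end. The median distance among the 11 circles was 0.84 for pairs with a common start or end and 0.70 for pairs with neither. Leaving out the 0 to 15.699 kb circle, these distances were 0.77 and 0.65. Among these circles, pairs that share a splice site were thus not closer in profile than the other pairs. Pairs are not independent, and no test was made.

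The levels were also summed at single splice sites. The end at 44.590 kb, joined to 4 starts, summed to 573, 502 and 485 SRPBM in triptolide A, B and C and 350 and 413 in controls 1 and 2, a ratio of 1.36 (1.26 without control 1). The end at 77.180 kb, joined to 7 starts, summed to 400, 318 and 356 SRPBM in triptolide A, B and C and 219 and 378 in controls 1 and 2. With control 1 the ratio was 1.20, and without it 0.95. Of the starts, 30.265 kb gave 153, 194 and 156 SRPBM in triptolide A, B and C and 148 and 182 in controls 1 and 2. The start at 35.726 kb gave 38, 123 and 130 SRPBM in triptolide A, B and C and 123 and 98 in controls 1 and 2. The groups thus separated at the start at 0 kb and the end at 44.590 kb, which share the most abundant circle of that start, and overlapped at the other sites named here. The sum over all Rgs22 circles was also higher in every triptolide library, but it contains the circles of both sites. Whether the difference lies at those 2 sites was not tested. As a share of the Rgs22 sum, the circle that joins both sites overlapped between the groups.

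The 2 neighbouring ends at 44.559 kb and 44.590 kb took shares from the start at 0 kb that differed by less than their counting error. The lower end took 31.4%, 34.2% and 36.7% of the reads to both in triptolide A, B and C and 33.3% and 27.3% in controls 1 and 2. With 22 to 38 reads per library the exact 95% intervals are wide, from 16.9% to 49.3% in triptolide A, and all 5 overlap. From the start at 15.520 kb the lower end was listed at 0 in every library except control 2, where it had 2 of 14 reads. From the start at 30.265 kb it was listed at 0 in every library except control 1, where it had 5 of 17 reads (29.4%). The pair of ends was thus shared by 3 starts, but the lower one was listed above 0 in all libraries from 1 start only.

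Rgs22 was set beside all 3496 host genes. It ranked 16th by number of circles and 38th by mean summed level, 1070 SRPBM. Among the 184 hosts with at least 10 circles, Rgs22 had 20.8% of its signal in its top circle and 8 circles from its most used start, against 35.2% and 4 in the median host. Of those hosts, 167 had a top circle share at least that of Rgs22, and 22 had as many circles or more from 1 start, both counts including Rgs22. Its top circle thus held a smaller share than in most of these hosts, whose median number of circles was 13 against 25 for Rgs22. The share of circles found in 1 library was 56.0% for Rgs22 and 46.2% for the median host, and the share found in all 5 was 24.0% and 16.3%. In the ratio of summed levels, triptolide over control, the median was 0.93, and 19 of the 184, Rgs22 among them, were at or above its 1.42 (28 at or above its 1.25 without control 1).

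Bbs9 and Dnah8, 2 other hosts with many circles, differed from it in shape. Bbs9, a subunit of the ciliary BBSome complex, had 20 circles and the highest mean level of all hosts, 15514 SRPBM, with 61.2% in its top circle. Its sum was 11500, 14461 and 12240 SRPBM in triptolide A, B and C and 24194 and 15174 in controls 1 and 2, a ratio of 0.65 (0.84 without control 1). Dnah8, an axonemal dynein heavy chain of the sperm tail, had 51 circles, the most of any host, and 52.9% of its signal in 1. Its sum was 2000, 3141 and 2048 SRPBM in triptolide A, B and C and 3076 and 2565 in controls 1 and 2, a ratio of 0.85 (0.93 without control 1). In both hosts the means were lower in triptolide, whereas that of Rgs22 was higher.

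The host genes whose summed level followed that of Rgs22 most closely over the 5 libraries were Cspp1, Kifap3, Sipa1l1, Agbl4 and Prpf6, out of 792 with at least 3 circles and a level above 0 in every library. Their root mean square distances of centred log2 levels were 0.06 to 0.15. Cspp1, which encodes a centrosome and spindle pole protein, had 142, 140 and 147 SRPBM in triptolide A, B and C and 87 and 122 in controls 1 and 2. Kifap3, the kinesin-associated subunit of a ciliary motor, had 400, 335 and 311 SRPBM in triptolide A, B and C and 191 and 296 in controls 1 and 2. Like Rgs22, both were lowest in control 1. Without control 1 their ranks among the 792 were 3 and 9, and those of the other three 7, 26 and 30.

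Circles were also listed for some other genes of the RGS and G protein pathway. Of 34 genes for RGS or RGS-domain proteins, Rgs22 apart, 7 had circles, 35 in all. In the fit over all circRNAs 16 of the 35 entered, 0 passed, and their median log2 difference was -0.04, against -0.06 over all 5457. A circle of Rgs12, which encodes a large RGS protein (chromosome 5, 34964773 to 34999229), had 267, 336 and 444 SRPBM in triptolide A, B and C and 483 and 513 in controls 1 and 2, without overlap (limma log2 difference -0.52 ± 0.32 SE, adjusted p = 0.68). A circle of Grk4, a receptor kinase with an RGS domain (chromosome 5, 34710133 to 34752267), had 38, 17 and 26 SRPBM in triptolide A, B and C and was listed at 0 in both controls (adjusted p = 0.68, limma). It rests on fewer reads than the 0 to 15.699 kb circle of Rgs22, which itself had only 12 to 14 in each triptolide library. The targets of RGS proteins, 16 G protein alpha subunit genes, gave 2 circles, from Gnao1 and Gnaq, neither of which entered the fit.

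Among 17 genes for G protein beta and gamma subunits, only Gnb1 had circles, 5 in all, of which 3 entered the fit and 0 passed. Its circle at chromosome 4, 155515631 to 155543193, had 38, 44 and 43 SRPBM in triptolide A, B and C and 114 and 58 in controls 1 and 2 (limma log2 difference -0.77 ± 0.50 SE, adjusted p = 0.68). A second Gnb1 circle, from 155527413 to the same end, had 19, 53 and 52 SRPBM in triptolide A, B and C and 52 and 58 in controls 1 and 2 (adjusted p = 0.96, limma). The Gnb1 values were thus lower in triptolide on average, and neither passed the test.

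Of 12 genes around Rgs22 on chromosome 15, 4 had circles, 50 in all, most of them from Vps13b, a lipid transfer protein gene. In the fit 30 entered and 0 passed, with 2 at an unadjusted p under 0.05 and a median log2 difference of -0.08. Those 2 Vps13b circles, 35533296 to 35652366 and 35597395 to 35674952, were listed at 0 in all triptolide libraries. In controls 1 and 2 the first had 35 and 16 SRPBM and the second 17 and 16 (adjusted p = 0.68 for both, limma). The summed level of the neighbours was 1156, 1565 and 1627 SRPBM in triptolide A, B and C and 764 and 1967 in controls 1 and 2. Here, too, control 1 was the lowest library, whereas control 2 was the highest, a pattern that the Rgs22 sum did not have.

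Markers of the cells a testis holds were read from the circles of their host genes. For spermatocytes 9 of 13 marker genes had circles, summing to 2396, 2641 and 2223 SRPBM in triptolide A, B and C and 2386 and 3173 in controls 1 and 2. For spermatids 7 of 16 had circles, summing to 4802, 6642 and 4301 SRPBM in triptolide A, B and C and 5904 and 6296 in controls 1 and 2. The sums of both germ cell lists thus overlapped between the groups. Of 15 spermatocyte marker circles in the fit, 0 had every triptolide library above both controls and 5 had every triptolide library below them. Of 56 spermatid marker circles, 3 were above and 5 below, beside the 6.78% above and 10.5% below over all circRNAs in the fit. Spermatogonia markers (2 of 6 genes with circles) summed to 115 to 139 SRPBM in triptolide and 124 to 140 in control. Sertoli (1 of 8), Leydig (1 of 7) and immune markers (1 of 6) had at most 57 SRPBM in any library, and the 5 endothelial and 5 epididymal markers had none. Of the marker circles in the fit, 0 passed. The smallest p among them was that of a circle of Prm2, a sperm protamine (chromosome 16, 10791405 to 10791857), with 86, 79 and 52 SRPBM in triptolide A, B and C and 624 and 290 in controls 1 and 2 (limma log2 difference -2.35 ± 0.44 SE, adjusted p = 0.68). The part of cell composition in the Rgs22 values was not tested.

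A measure that the choice of Rgs22 did not use comes from the long non-coding RNA (lncRNA) table, whose libraries held 947298 to 1071012 expected counts each. Its triptolide libraries are called A, B and 3, and these letters do not correspond to those of the circRNA table. Over all lncRNA loci, edgeR's quasi-likelihood test called 501 of 6888 (7.27%) at an adjusted p of 0.05, and of 4 loci at or next to Rgs22 it called 0. The locus antisense to Rgs22, XLOC_066731 (chromosome 15, 36139667 to 36164469, plus strand), has 6 assembled transcripts, 5 with the gene ID of Rgs22 and 1 with that of Fbxo43, and begins 17335 bases above the highest circle end. It had 93.0, 140 and 78 expected counts in triptolide A, B and 3 and 97 and 78 in controls 1 and 2. In CPM, counts scaled to the library total, this was 102 ± 28.5 in triptolide (SD, n = 3) and 86.7 ± 19.6 in control (SD, n = 2), with overlap (log2 fold change 0.24 ± 0.25 SE, adjusted p = 0.64, edgeR). The sources used here do not say whether reads were counted by strand, so its reads and those of Rgs22 or Fbxo43 cannot be told apart for certain.

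The transcripts of that locus split its counts very differently between libraries. The transcript TCONS_00108654 held 94.3%, 6.69% and 81.8% of the locus in triptolide A, B and 3 and 35.9% and 50.6% in controls 1 and 2. The transcript TCONS_00108656 held 69.1% in triptolide B, 0% in triptolide A and 3, and 53.7% and 21.1% in controls 1 and 2. Triptolide B thus lay outside the other triptolide libraries, beyond both controls, and the transcripts did not separate the groups. Tested as single transcripts, where edgeR called 0 of 13534 (0%, 1339 at an unadjusted p under 0.05), they had adjusted p-values of 0.90 and 0.99. The split of counts between overlapping transcripts is the authors' estimate.

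**Figure D5:**
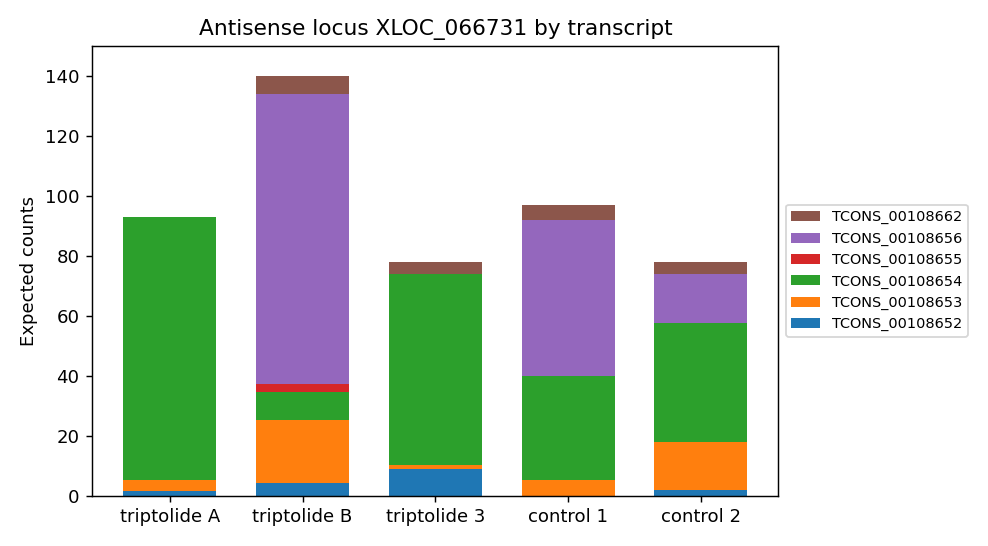
Expected counts (y axis) of the locus antisense to Rgs22, XLOC_066731, stacked by its 6 assembled transcripts, in the 3 triptolide and 2 control lncRNA libraries (x axis). Triptolide B, with 140 counts, is made mostly of TCONS_00108656, which is at 0 in triptolide A and 3.

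On the strand of Rgs22, the locus XLOC_071241 (chromosome 15, 35983990 to 36005056) lies 5232 bases below the lowest circle start and inside the RefSeq span of the gene, although it is listed as intergenic. It cannot be separated from linear Rgs22 RNA here. It had 84, 78 and 104 expected counts in triptolide A, B and 3 and 81 and 95 in controls 1 and 2. The difference was smaller than the spread between libraries (log2 fold change 0.03 ± 0.24 SE, adjusted p = 0.97, edgeR). The nearest loci outside were XLOC_071207 on the lower side, with a log2 fold change of -0.60 ± 0.29 SE (adjusted p = 0.23, edgeR), and XLOC_071260 on the higher side, with -0.19 ± 0.73 SE (adjusted p = 0.91, edgeR). The linear Rgs22 mRNA was not analysed here, because the mRNA table gives transcripts without gene names.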

How the data were processed

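Testis RNA of 3 triptolide and 2 control libraries was depleted of ribosomal RNA and sequenced as strand-specific read pairs, per the labels' protocols. The submitters' processing notes name HISAT2 2.0.1, HTSeq 0.6.1, DESeq and bedtools 2.17.0, with no role stated, and the human build hg19. The coordinates lie in mouse genes and are printed as deposited, or relative to the lowest Rgs22 circle start, and the RefSeq table of GRCm38.p6 served for names and neighbours only. The circRNA score deposited by the authors is, from its name, SRPBM, and the lncRNA values are expected counts, per the file headers.

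SRPBM values were found to be whole reads times a constant per library with the decimals dropped, which holds exactly for 99.956% to 99.9823% of entries above 0, so reads were decoded from them. Headers matched columns to samples: 3 circRNA columns share 1 triptolide header and are called A, B and C, and 2 lncRNA columns share another. The 5 FPKM columns beside the lncRNA counts and the 10 per-sample columns of the mRNA table were not used. circRNAs above 0 in at least 2 libraries were log2-transformed with 16, the smallest listed level, added and fitted with limma 3.58.1 (trend). On that scale the change of low circRNAs is understated. Expected counts were summed per lncRNA locus, rounded and tested with edgeR 4.0.16 (filterByExpr, TMM, quasi-likelihood F test) in R 4.3.3, with Benjamini-Hochberg adjustment at 0.05. The scripts were tested on simulated data. Alternatives were DESeq2 1.42.0, limma, other scaling, pseudocounts and filters, and each library left out.

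Circles with values in every library are those that share a splice site with 0 to 15.699 kb, are above 0 in at least 4 libraries or average at least 5% of the Rgs22 sum. The 5 hosts and 2 circles per gene list were named by the rules given. Of these hosts, only Cspp1 and Kifap3 have their values printed. Of the cell type marker lists only the circle with the smallest p over all is named. The members and lists were chosen with earlier results of these data known.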

Additional observations from a re-analysis of the deposited data

How the results depend on the processing

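The Rgs22 sum kept a ratio above 1 in every alternative run, from 1.25 to 1.63 when 1 library was left out. The mean share of the 0 to 15.699 kb circle in triptolide was 9.23% to 10.1% when 1 library was left out and 10.2% among circles above 0 in at least 2 libraries. Its log2 difference from controls at 0 is set by the pseudocount: 3.06 with 16, 6.88 with 1 and 3.97 with 8 (3.02 to 3.13 when 1 library was left out). Keeping circles above 0 in at least 2 libraries left 11 of 25. Of their pairs, 66.7% of those that share an end and 67.6% of those that share none moved the same way.

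circRNA calls by limma numbered 36 without a filter, 1 among circles in all 5 libraries, and 0 to 130 when 1 library was left out (2 without control 1, 130 without control 2). Rgs22 calls were 1 without a filter and 0 to 1 when 1 library was left out. The circle counted was that of 0 to 15.699 kb each time, which this contrast chose, so nothing is read from the count. In a fit that leaves out a control, the lone control library is assumed to vary like the triptolide libraries. Calls in the gene lists other than the cell type markers were 1 without a filter and 0 when 1 triptolide library was left out. That call was a Vps13b circle listed at 0 in control 1. For the cell type marker lists, calls in the alternative runs were not counted. The cause was not tested.

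lncRNA locus calls ranged from 269 (without control 1 or triptolide 3; 279 without triptolide A) to 588 (without triptolide B), and none was at Rgs22. The log2 fold change of XLOC_071241 reversed to -0.10 without triptolide 3 and -0.03 without control 1 (range -0.10 to 0.17). That of XLOC_071260 reversed to 0.08, 0.12 and 0.44 without triptolide A, triptolide 3 and control 1 (range -0.63 to 0.44). Without triptolide B it was not tested. No paired analysis was possible because the triptolide columns do not each carry a replicate number.

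The 14 Rgs22 circles listed in 1 library rest on 2 to 7 reads and did not enter the fit, so whether they differ between the groups was not tested.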
